A study of Homo sapiens with 12 samples.

Results

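The 10 genes described here encode the enzymes, matrix proteins, transporters and membrane receptor of the melanosome, the organelle in which melanin is made. They were chosen by name as PMEL, TYRP1, DCT, TYR, MLANA, SLC45A2, SLC24A5, GPR143, GPNMB and OCA2, out of 56638 gene symbols in the count table, and all 10 passed the filter on low counts that left 16080 genes for testing. RNA was taken from 501Mel, an established human melanoma cell line that carries the BRAF-V600E mutation, after 48 h of exposure, and was sequenced in 12 libraries, 2 for each of 6 groups. The groups were vehicle (DMSO), 1 µM Vem (vemurafenib, an inhibitor of mutant BRAF), 10 nM TCDD (a dioxin that activates the aryl hydrocarbon receptor, AhR), 5 µM RSV (resveratrol, used in the study as an AhR antagonist), RSV+Vem at 5 and 1 µM, and RSV+TCDD. For RSV+TCDD the treatment protocol gives 5 µM and 10 nM, whereas the source label of those libraries gives 1 nM TCDD. All groups come from this 1 line, and the labels do not say whether the libraries of a group came from separate cultures, so the p-values measure the spread between these libraries, which may be technical.

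Melanin is made from tyrosine inside melanosomes. TYR (tyrosinase) catalyses the rate-limiting oxidation of tyrosine, and DCT and TYRP1 act on later intermediates of the eumelanin branch. PMEL is cut into fibrils on which the pigment is laid down, MLANA helps PMEL mature, and GPNMB is a glycoprotein related to PMEL that is also found in lysosomes. OCA2 and SLC45A2 are membrane transporters linked to the control of melanosome pH, SLC24A5 is a cation exchanger, and GPR143 is a receptor of the melanosome membrane that affects organelle size and number. Loss of TYR, OCA2, TYRP1 or SLC45A2 causes forms of oculocutaneous albinism, and loss of GPR143 causes ocular albinism. The transcription factor MITF, with SOX10 above it, drives most of these genes through E-box elements of the M-box type.

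RefSeq promoter windows (GRCh38.p14, from 250 bases before to 50 after each annotated start) were on hand for 8 of the 10 genes, DCT with 2 starts. The M-box core CATGTG, searched on both strands, was found in 7 of these 8 genes, MLANA being the exception, whereas it was present in 11.1% of 35116 promoters of the same length. The former counts genes and the latter single windows, and 1 of the 2 DCT windows held no such core. The palindromic E-box CACGTG was in none of the 9 windows and in 7.26% of all promoters. The sequences below are the stretches around each core found in these 7 genes. Each line holds 30 bases read 5′ to 3′ so that the core, in capitals, reads CATGTG. No capitals overlapped a GCGTG, the core of the xenobiotic response element (XRE) bound by AhR with its partner ARNT.
TYR, chr11:89177759-89177788, + strand: agaaaagtcagtCATGTGcttttcagagga
TYR, chr11:89177851-89177880, + strand: tctcagccaagaCATGTGataatcactgta
TYRP1, chr9:12693229-12693258, + strand: ttggaagggaatCATGTGctgatcaagtcc
TYRP1, chr9:12693362-12693391, - strand: aactgttaagtgCATGTGgattgctgcctg
DCT, chr13:94479799-94479828, - strand: tgcactttgggtCATGTGctaatgatgagg
DCT, chr13:94479880-94479909, + strand: tttatctgggctCATGTGctccagccaaac
OCA2, chr15:28099451-28099480, - strand: tgtgggcggggcCATGTGggcagctttgtg
SLC24A5, chr15:48120963-48120992, - strand: attaaactggatCATGTGaggagtctcctt
GPR143, chrX:9765891-9765920, + strand: tgggggcggcatCATGTGccctgggcctct
GPR143, chrX:9765863-9765892, + strand: gcctgcctgggtCATGTGctgggcgggctg
GPNMB, chr7:23246640-23246669, - strand: cctcttacaactCATGTGcttatgactcac
GPNMB, chr7:23246701-23246730, - strand: ctcggggaggatCATGTGatggtattaagc

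The cores of TYR lay 104 and 12 bases before its start, and that of OCA2 lay 153 bases before. The XRE core GCGTG, on both strands, was found 5 times in the OCA2 window and once each in the windows of MLANA, SLC24A5 and 1 start of DCT. This core was in 36.5% of all promoters. These are matches of letters, and binding was not measured in these libraries.

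The counts on genes ranged from 8378655 to 25076925 per library, and a gene's level is given below as CPM, its count relative to the size of the library, scaled with TMM factors between 0.890 and 1.08. A gene was called at an edgeR quasi-likelihood adjusted p below 0.05, with Benjamini-Hochberg adjustment over 16080 genes in 1 fit of the 12 libraries. For 1 gene compared between 2 libraries and 2, exact permutation gives no two-sided p under 0.333, and each p below therefore comes from the model across genes. RIN values, a measure of RNA integrity, were 8.6 and 8.7 in the RSV+Vem libraries and between 9.1 and 9.7 elsewhere, and their part in the RSV+Vem results was not tested. As a check of treatment, DUSP6, a feedback target of the MAPK pathway, was at 111 and 98.5 CPM with vehicle and at 1.81 and 0.692 CPM with Vem, and CYP1A1, the classical AhR target, was at 23.5 and 23.1 CPM with vehicle and at 156 and 131 CPM with TCDD. DUSP6 was less low with RSV+Vem, at 14.5 and 11.9 CPM, and its response to Vem differed with RSV (interaction 2.66, edgeR adjusted p = 2.67e-05). CYP1A1 was also higher with RSV alone than with vehicle, at 69.0 and 67.5 CPM (log2 fold change 1.55, edgeR adjusted p = 4.36e-08), and was at 41.8 and 42.2 CPM with RSV+TCDD. Scaled to the ERCC spike-ins in place of TMM, CYP1A1 with RSV was at 1.38 and not called (edgeR adjusted p = 0.063). The melanocytic markers outside the 10 genes were present throughout, with MITF between 457 and 1259.8 CPM, SOX10 between 390.2 and 907, S100A1 between 22.7 and 42.0 and S100B between 8.3 and 57.6 CPM. S100B changed in the direction opposite to most of the 10 genes, falling by 1.82 with Vem (edgeR adjusted p = 7.01e-09) and higher by 0.78 with RSV (8.64e-05) on the log2 scale. With spike-in scaling S100B was at -2.47 with Vem, still called, and at 0.61 with RSV, not called (edgeR adjusted p = 0.61). Summed levels of 5 macrophage markers were between 0.121 and 0.965 CPM and those of 3 endothelial markers between 0.221 and 1.92 CPM, with CD163 and PECAM1 at 0 counts in every library. The 4 keratinocyte markers, mostly KRT10 and with KRT1 at 0 counts, summed to 22.8 and 26.0 CPM with Vem, to between 13.7 and 16.3 CPM with RSV and RSV+TCDD, and to between 16.9 and 20.9 CPM elsewhere. The 4 fibroblast markers summed to 31.7 and 39.4 CPM with TCDD and to between 6.38 and 15.9 CPM elsewhere, mostly LUM, and the part of these markers in the results was not tested.

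Together the 10 genes held 2.08% and 1.97% of all counts on genes in the vehicle libraries. Their share was 4.51% and 4.76% with Vem, 2.68% and 2.58% with TCDD, and 1.31% and 1.42% with RSV. With RSV+Vem it was 2.20% and 2.34%, and with RSV+TCDD 1.85% and 1.91%. PMEL, TYRP1 and DCT carried between 73.0% and 87.4% of the members' counts in each library. In bulk RNA, a smaller fraction of pigmented cells and less RNA of these genes per cell cannot be told apart.

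**Figure D1:**
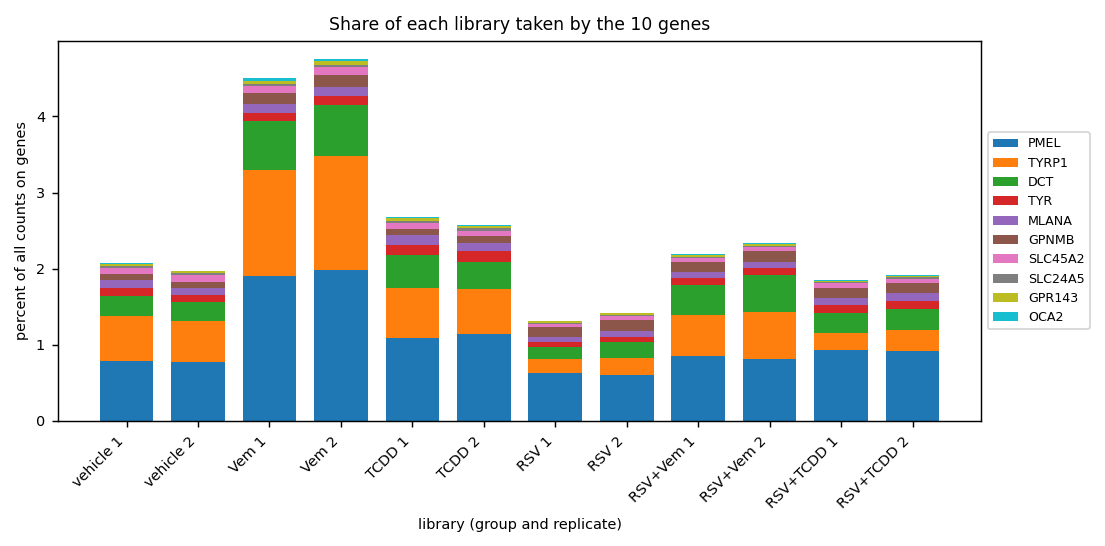
Percent of all counts on genes (y axis) taken by each of the 10 genes, stacked, in the 12 libraries (x axis, group and replicate). The 2 Vem bars reach 4.51% and 4.76% and the 2 RSV bars 1.31% and 1.42%, with PMEL, TYRP1 and DCT making up most of every bar.

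Levels differed widely among the genes when divided by the length of their exons. In the vehicle libraries PMEL stood highest at 2141 ± 0.306 CPM per kb (SD, n = 2), followed by TYRP1 at 1534 ± 82.7. TYR at 366 ± 17.8, DCT at 345 ± 16.8 and MLANA at 335 ± 24.7 CPM per kb formed a close middle group. SLC45A2 was at 262 ± 6.63, GPNMB at 138 ± 5.94, GPR143 at 105 ± 3.59, SLC24A5 at 57.9 ± 1.36 and OCA2 lowest at 31.0 ± 6.54 CPM per kb. PMEL led in all 6 groups and TYRP1 came next in all 6. The lowest place was held by OCA2 in 4 groups and by SLC24A5 with Vem and with RSV+Vem.

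The enzymes were sorted into different patterns by the treatments. TYR was at 981 and 916 CPM with vehicle, 1204 and 1274 with Vem, 1446 and 1420.2 with TCDD, 598 and 646 with RSV, 839 and 778 with RSV+Vem, and 1043 and 977 CPM with RSV+TCDD. TYR was thus highest with TCDD, above both Vem libraries, and its RSV+TCDD libraries overlapped those of vehicle. TYRP1 was at 5948 and 5511 CPM with vehicle, 15551 and 16729 with Vem, 6899 and 6298 with TCDD, 1752 and 2170.0 with RSV, 5023 and 5731 with RSV+Vem, and 2103 and 2559.8 CPM with RSV+TCDD. Both Vem libraries of TYRP1 lay far above all others, and those of RSV+TCDD and RSV overlapped. DCT was at 2687 and 2508 CPM with vehicle, 7100.2 and 7655 with Vem, 4445 and 3753 with TCDD, 1410.3 and 2003 with RSV, 3757 and 4674 with RSV+Vem, and 2519.6 and 2733 CPM with RSV+TCDD. DCT with RSV+Vem overlapped DCT with TCDD, and DCT with RSV+TCDD overlapped vehicle.

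Of the matrix and membrane glycoproteins, only GPNMB had vehicle as its lowest group. PMEL was at 7860.4 and 7862 CPM with vehicle, 21053 and 22338 with Vem, 11487 and 11985 with TCDD, 5811 and 5699 with RSV, 7991 and 7711 with RSV+Vem, and 8872 and 8901 CPM with RSV+TCDD. Its RSV+Vem libraries lay on both sides of vehicle, and no other neighbouring groups overlapped. MLANA was at 1056 and 951 CPM with vehicle, 1209 and 1390.3 with Vem, 1303 and 1220.2 with TCDD, 638 and 763 with RSV, 729 and 781 with RSV+Vem, and 814 and 1029 CPM with RSV+TCDD. Its range over the groups was narrow, and 3 of its 5 pairs of neighbouring groups overlapped. GPNMB was at 840.5 and 791 CPM with vehicle, 1585 and 1695 with Vem, 905 and 873 with TCDD, 1165 and 1379 with RSV, 1264 and 1351 with RSV+Vem, and 1329.8 and 1266 CPM with RSV+TCDD. The 3 groups with RSV overlapped one another for GPNMB and lay above vehicle and TCDD.

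Among the transporters and the receptor, OCA2 had the widest range in proportion and SLC24A5 the weakest response to Vem. OCA2 was at 116 and 86.0 CPM with vehicle, 404 and 389.9 with Vem, 171 and 164 with TCDD, 39.2 and 44.6 with RSV, 155 and 149.8 with RSV+Vem, and 60.4 and 58.1 CPM with RSV+TCDD. No neighbouring groups overlapped for OCA2. SLC45A2 was at 829 and 859 CPM with vehicle, 1139.7 and 1222 with Vem, 767 and 806 with TCDD, 459 and 506 with RSV, 464 and 475 with RSV+Vem, and 539.7 and 549 CPM with RSV+TCDD. All 6 libraries with RSV lay below all 6 without it for SLC45A2, and RSV overlapped RSV+Vem. SLC24A5 was at 280.4 and 271 CPM with vehicle, 278 and 310.2 with Vem, 335 and 321 with TCDD, 95.7 and 125 with RSV, 113 and 116 with RSV+Vem, and 126 and 162 CPM with RSV+TCDD. Its libraries fell into a high set without RSV and a low set with RSV. GPR143 was at 256 and 244 CPM with vehicle, 456 and 475 with Vem, 349 and 351 with TCDD, 186 and 188 with RSV, 264 and 260.0 with RSV+Vem, and 217 and 210.3 CPM with RSV+TCDD, with no overlap between neighbours.

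**Figure D2:**
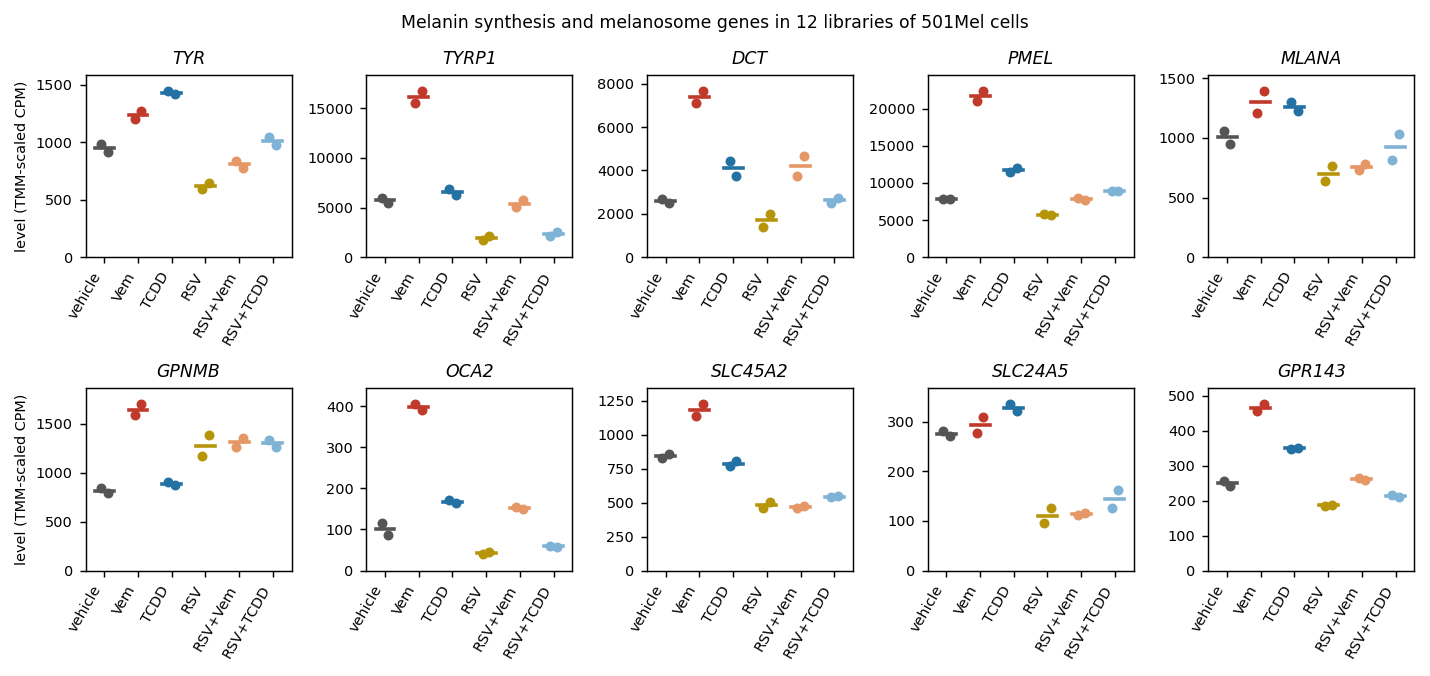
TMM-scaled CPM (y axis, from 0, a scale per gene) of each gene in the 6 groups (x axis). Points are the 2 libraries and lines their means. Vem is the highest group for 8 of the genes and TCDD for TYR and SLC24A5, and RSV or RSV+Vem is the lowest for 9 of them, GPNMB being lowest with vehicle.

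Some of these counts border on those of other genes. On GRCh37, the build of the alignment, SLC24A5 (chromosome 15, 48413187 to 48434869, + strand) shares 1574 exonic bases with MYEF2 on the opposite strand, and MYEF2 held between 62 and 185 counts where SLC24A5 held between 1035 and 7418. PMEL (chromosome 12, 56347889 to 56367101, - strand) shares 89 exonic bases with CDK2, on the opposite strand, which held between 10212 and 43847 counts or between 7.16% and 22.5% of those of PMEL. The study's methods name a stranded kit of a type that is usually counted with the strand option reversed, but give the forward option for the counting. Which strand was counted was not tested. PMEL held between 68570 and 302728 counts. Reads of the shared bases, 89 of 3671 exonic bases in PMEL and 1574 of 4760 in SLC24A5, may be assigned to the wrong gene. TYRL is a partial copy of TYR (chromosome 11, 88911043 to 89028927, + strand), and it held between 2.65% and 3.54% of the counts of TYR, so that reads could be split between them. TYRL was also among the genes whose pattern was most like that of TYR.

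Exposure to Vem raised 9 of the 10 genes over vehicle, although TYR, MLANA and SLC45A2 were below 0 under spike-in scaling. Under TMM 25.5% of all tested genes were called higher and 26.9% lower. The largest change was in OCA2, at a log2 fold change of 1.98 (SE 0.12, edgeR adjusted p = 2.06e-10), a 3.93-fold increase. DCT at 1.51 (SE 0.15), TYRP1 at 1.49 (SE 0.11) and PMEL at 1.46 (SE 0.07) rose by nearly the same factor, from very different starting levels. GPNMB at 1.01 (SE 0.09) and GPR143 at 0.90 (SE 0.08) were intermediate. SLC45A2 at 0.48 (SE 0.08), TYR at 0.38 (SE 0.08) and MLANA at 0.37 (SE 0.11) rose least, so that the enzyme at the rate-limiting step changed 1.31-fold while the enzymes of the later steps changed 2.82-fold (TYRP1) and 2.84-fold (DCT). SLC24A5 was at 0.09 with a 95% interval from -0.17 to 0.35. The median of the 10 genes was 0.95, beside -0.03 over all tested genes. The call on MLANA was lost without vehicle replicate 2 (edgeR adjusted p = 0.074) and without Vem replicate 2 (0.13).

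The size of these changes depends on what is held constant. Scaled to the ERCC spike-ins in place of TMM, the median over all tested genes moved to -0.68 with Vem and to -0.51 with TCDD on the log2 scale. On that scale 1 of the 10 genes was called with Vem, OCA2 at 1.32, while TYR at -0.27, MLANA at -0.28 and SLC45A2 at -0.17 turned negative. Relative to the median of all genes, which a change of scaling moves together with the members, the median of the 10 genes with Vem was 0.98 higher. Shares of all tested genes called on the spike-in scale are not given here or below. Calls lost on that scale are therefore not a result about these genes in particular. The spike-in level itself varied between replicates, from 365 to 852 CPM with RSV+Vem and from 601 to 903 CPM with RSV+TCDD.

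TCDD raised 5 of the 10 genes over vehicle, although on the spike-in scale no member was called by edgeR (none at an unadjusted p below 0.05 either) and GPR143 was at -0.02. Under TMM 4.72% of all tested genes were called higher and 2.01% lower. The 5 were OCA2 at a log2 fold change of 0.73 (SE 0.11, edgeR adjusted p = 6.54e-04), DCT at 0.66 (SE 0.15, 0.020), TYR at 0.59 (SE 0.08, 2.63e-04), PMEL at 0.58 (SE 0.07, 1.10e-04) and GPR143 at 0.49 (SE 0.08, 7.76e-04). MLANA at 0.33 (95% interval 0.09 to 0.57), SLC24A5 at 0.25 (-0.01 to 0.51), TYRP1 at 0.20 (-0.03 to 0.44), GPNMB at 0.12 (-0.06 to 0.31) and SLC45A2 at -0.10 (-0.27 to 0.07) were not called. MLANA was called with no filter on low counts (edgeR adjusted p = 0.017) and with only these 4 libraries (0.024). DCT lost its call without vehicle replicate 1 (edgeR adjusted p = 0.065), vehicle replicate 2 (0.12) or TCDD replicate 1 (0.16). The median of the 10 genes was 0.41, and it lay 0.41 above that of all genes.

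Set directly against TCDD, Vem gave higher levels of 7 of the genes and a lower level of TYR, where 24.1% of all tested genes were called higher and 26.4% lower. TYRP1 was higher with Vem by 1.29 (SE 0.11), OCA2 by 1.25 (SE 0.11), PMEL by 0.89 (SE 0.07), GPNMB by 0.88 (SE 0.09), DCT by 0.85 (SE 0.15), SLC45A2 by 0.59 (SE 0.08) and GPR143 by 0.41 (SE 0.08) on the log2 scale. TYR was at -0.21 (SE 0.08, edgeR adjusted p = 0.041), and this call was lost with DESeq2, with RLE factors, with no filter on low counts and without any 1 of the 4 libraries compared (adjusted p between 0.058 and 0.21). MLANA at 0.04 (95% interval -0.20 to 0.28) and SLC24A5 at -0.16 (-0.42 to 0.10) were not called. Under spike-in scaling none of the 10 genes was called by edgeR, 2 of them, TYRP1 and OCA2, were at an unadjusted p below 0.05, and the median of the genes was 0.57 in place of 0.72.

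RSV alone lowered 9 of the 10 genes and raised GPNMB, where 20.5% of all tested genes were called higher and 20.2% lower. TYRP1 fell by 1.55 (SE 0.11, edgeR adjusted p = 4.27e-08), SLC24A5 fell by 1.32 (SE 0.13), OCA2 fell by 1.27 (SE 0.12) and SLC45A2 fell by 0.81 (SE 0.08) on the log2 scale. DCT and TYR both fell by 0.61, MLANA fell by 0.52, PMEL fell by 0.45 and GPR143 fell by 0.42. GPNMB was higher by 0.64 (SE 0.09, edgeR adjusted p = 2.64e-05). The median of the 10 genes was -0.61, beside a median near 0 over all genes. Spike-in scaling kept the sign of all 10 values and left 3 calls, TYRP1 at -1.73, SLC24A5 at -1.51 and OCA2 at -1.45. The order of the genes was not that seen with Vem, since SLC24A5, which was not called with Vem, was among those most lowered by RSV.

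**Figure D3:**
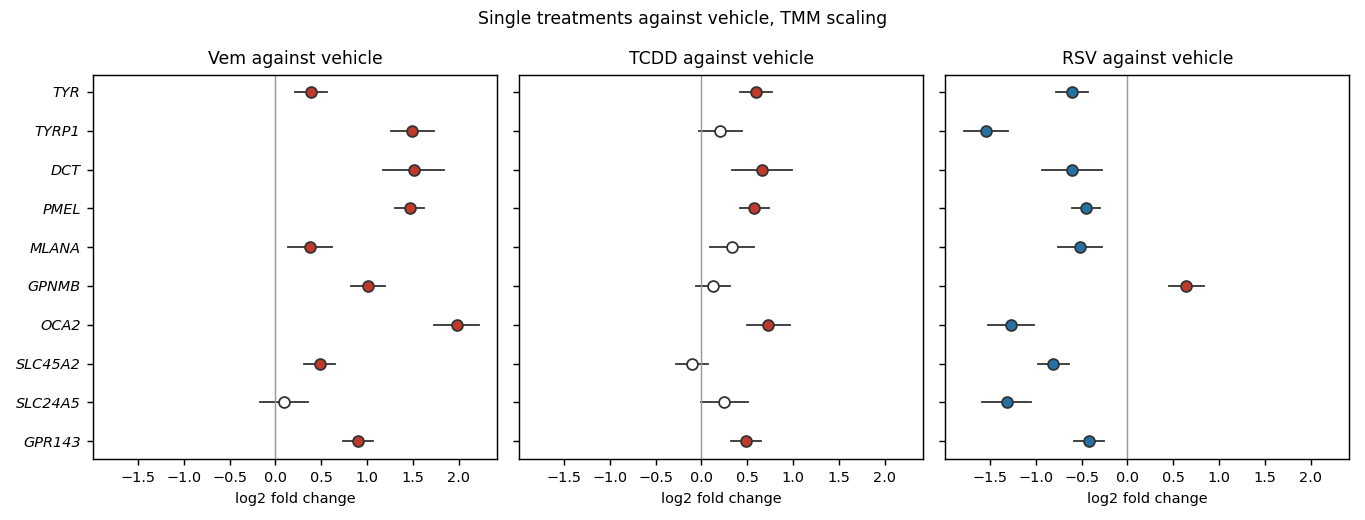
Log2 fold change under TMM scaling (x axis) of each gene (y axis) with Vem, TCDD and RSV against vehicle. Points are fitted values and lines 95% intervals, red called higher, blue called lower and open not called. Vem has 9 red points, TCDD 5, and RSV 9 blue points and GPNMB in red. Under spike-in scaling TYR, MLANA, SLC45A2 and SLC24A5 with Vem, and GPR143, MLANA, SLC24A5, TYRP1 and GPNMB with TCDD, turn from above to below 0.

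All 10 genes were lower with RSV+Vem than with Vem alone, in a comparison where 19.1% of all tested genes were called higher and 18.7% lower. The decreases ranged from -0.33 in GPNMB (SE 0.09) to -1.59 in TYRP1 (SE 0.11), with a median of -1.08. PMEL fell by 1.47, OCA2 fell by 1.38, SLC24A5 fell by 1.36 and SLC45A2 fell by 1.33, while GPR143 fell by 0.83, DCT fell by 0.81, MLANA fell by 0.78 and TYR fell by 0.62. Under spike-in scaling all 10 values stayed negative and 4 were called, TYRP1, PMEL, OCA2 and SLC24A5. GPNMB lost its call without Vem replicate 2 or RSV+Vem replicate 1 (edgeR adjusted p = 0.072 and 0.071).

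Against vehicle, the RSV+Vem cells had 3 of the genes higher, though not under spike-in scaling, and 4 lower. Under TMM 24.1% of all tested genes were called higher and 24.7% lower. DCT was higher by 0.70 (SE 0.15), GPNMB by 0.68 (SE 0.09) and OCA2 by 0.59 (SE 0.11), and these 3 values were -0.06, -0.03 and -0.09 under spike-in scaling. SLC24A5 fell by 1.27 (SE 0.13), SLC45A2 fell by 0.85 (SE 0.08), MLANA fell by 0.41 (SE 0.11) and TYR fell by 0.23 (SE 0.08). PMEL with a 95% interval from -0.16 to 0.15, TYRP1 from -0.33 to 0.14 and GPR143 from -0.09 to 0.23 were not called. The call on TYR was lost when only these 4 libraries were fitted (edgeR adjusted p = 0.089) and without vehicle replicate 1 (0.14) or RSV+Vem replicate 2 (0.18), and that on MLANA without vehicle replicate 1 (0.057) or RSV+Vem replicate 1 (0.060).

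In the presence of RSV, Vem raised 6 of the 10 genes over RSV alone, 3 of which turned negative under spike-in scaling. Under TMM 11.3% of all tested genes were called higher and 13.4% lower. OCA2 rose by 1.86 (SE 0.12, edgeR adjusted p = 4.74e-09), TYRP1 by 1.46 (SE 0.11), DCT by 1.30 (SE 0.15), GPR143 by 0.49 (SE 0.08), PMEL by 0.45 (SE 0.07) and TYR by 0.38 (SE 0.08) on the log2 scale. Spike-in scaling left 1 call, OCA2 at 1.36, and gave -0.07 for PMEL, -0.12 for TYR and -0.03 for GPR143. MLANA at 0.11 (95% interval -0.13 to 0.35), SLC24A5 at 0.05 (-0.22 to 0.32), GPNMB at 0.04 (-0.15 to 0.23) and SLC45A2 at -0.04 (-0.21 to 0.13) were not called. The median of the 10 genes was 0.41 under TMM and -0.09 under spike-in scaling.

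The difference between the effect of Vem with RSV and its effect without, tested as an interaction, was called in part of the genes. Of the 10, 4 had a smaller effect of Vem in the presence of RSV and the other 6 were not called, where 11.8% of all tested genes had a higher interaction and 10.9% a lower one. In PMEL the effect of Vem was 1.46 without RSV and 0.45 with it, an interaction of -1.02 (SE 0.10, edgeR adjusted p = 3.22e-06). In GPNMB it was 1.01 and 0.04, an interaction of -0.97 (SE 0.13, edgeR adjusted p = 3.54e-05). For SLC45A2 the effects were 0.48 and -0.04, an interaction of -0.52 (SE 0.11, edgeR adjusted p = 0.0032). For GPR143 they were 0.90 and 0.49, an interaction of -0.41 (SE 0.11, edgeR adjusted p = 0.012), which was lost without Vem replicate 2 (0.055). Of these 4, PMEL and GPNMB are related proteins, while SLC45A2 is a transporter and GPR143 a receptor.

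The 2 later enzymes and OCA2 were among the 6 genes without a called interaction. The interaction was -0.04 in TYRP1 (95% interval -0.37 to 0.29), -0.20 in DCT (-0.66 to 0.25) and -0.11 in OCA2 (-0.46 to 0.23). It was -0.01 in TYR (-0.25 to 0.24), -0.04 in SLC24A5 (-0.41 to 0.33) and -0.26 in MLANA (-0.60 to 0.07). Differences of the size seen in PMEL and GPNMB lie outside each of these 6 intervals. That of GPR143, -0.41, lies inside those of DCT, OCA2 and MLANA and at the edge of that of SLC24A5, so these genes cannot be told apart from GPR143. The interaction of SLC45A2, -0.52, lies inside the intervals of DCT and MLANA, which cannot be told apart from SLC45A2 either. Under spike-in scaling no member was called by edgeR and none had an unadjusted p below 0.05, while the 4 values stayed negative, at -0.88 in PMEL, -0.85 in GPNMB, -0.39 in SLC45A2 and -0.28 in GPR143.

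**Figure D4:**
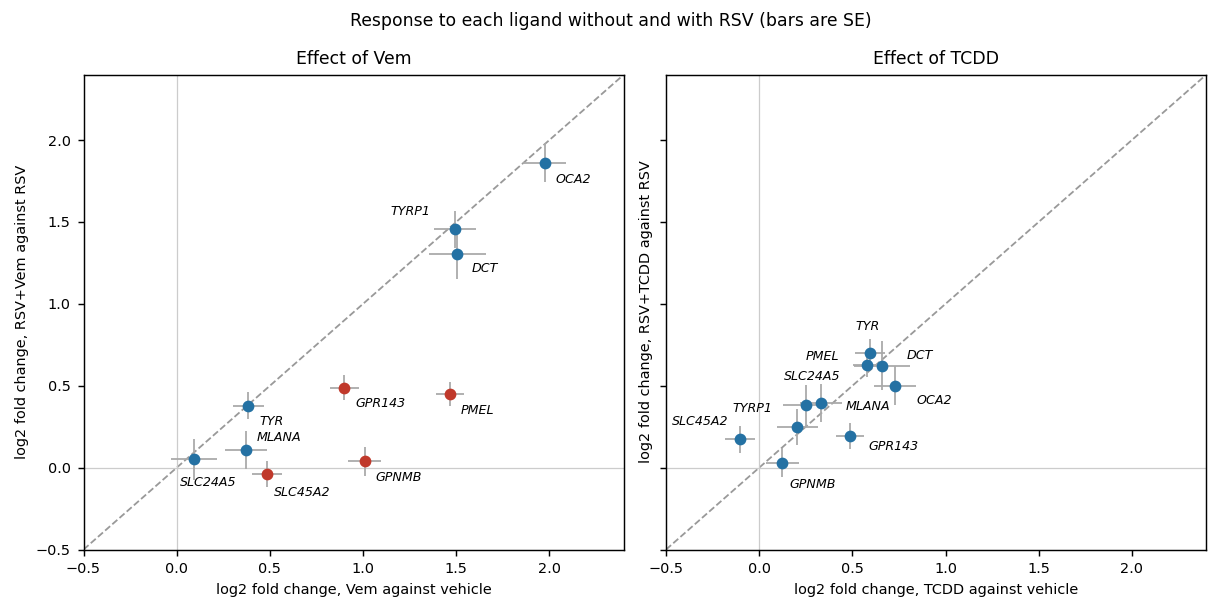
Log2 fold change with Vem (left) or TCDD (right) without RSV (x axis) and with RSV (y axis) under TMM scaling, points with SE bars and a dashed line of equal effect. PMEL, GPNMB, SLC45A2 and GPR143, in red, have a called interaction and lie below the line for Vem, where OCA2, TYRP1, DCT and TYR lie near it. With spike-in scaling TYR, MLANA, SLC45A2 and SLC24A5 without RSV, and PMEL, TYR, GPR143, MLANA, SLC24A5 and GPNMB with it, turn negative in the Vem panel. In the TCDD panel GPR143, MLANA, SLC24A5, TYRP1 and GPNMB without RSV and all 10 genes with it do.

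With TCDD present, RSV again lowered 9 genes and, on the TMM scale but not on that of the spike-ins, raised GPNMB. Under TMM 18.6% of all tested genes were called higher and 19.1% lower. TYRP1 and OCA2 both fell by 1.50, SLC24A5 fell by 1.19, GPR143 fell by 0.71 and DCT fell by 0.64 relative to TCDD alone. SLC45A2 fell by 0.53, TYR fell by 0.50, MLANA fell by 0.45 and PMEL fell by 0.40, and GPNMB was higher by 0.55 (SE 0.09), but at -0.13 under spike-in scaling, where 6 of the genes were called. MLANA lost its call without TCDD replicate 1 (edgeR adjusted p = 0.051) or RSV+TCDD replicate 1 (0.096).

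TCDD on top of RSV raised 5 genes over RSV alone under TMM, 7 with a replicate block within the RSV libraries, and none under spike-in scaling. Under TMM 3.89% of all tested genes were called higher and 2.28% lower. TYR rose by 0.70 (SE 0.08, edgeR adjusted p = 1.93e-04), PMEL by 0.63 (SE 0.07, 1.93e-04), DCT by 0.62 (SE 0.15, 0.030), OCA2 by 0.50 (SE 0.12, 0.018) and MLANA by 0.40 (SE 0.11, 0.048), and all 5 were negative under spike-in scaling, between -0.31 in TYR and -0.65 in MLANA, where none was called. Of these, TYR and PMEL alone were called without RSV replicate 1 and without RSV+TCDD replicate 2, and DCT and OCA2 also lost their calls without RSV+TCDD replicate 1. MLANA was not called when only these 4 libraries were fitted (edgeR adjusted p = 0.087). SLC24A5 at 0.38 (95% interval 0.12 to 0.64) was not called here but was called under 5 of the alternatives, such as a replicate block (edgeR adjusted p = 0.047). TYRP1 at 0.25 (0.02 to 0.48), GPR143 at 0.19 (0.03 to 0.36), SLC45A2 at 0.17 (0.00 to 0.34) and GPNMB at 0.03 (-0.16 to 0.22) were not called, although TYRP1 was with no filter on low counts (edgeR adjusted p = 0.034) and with a block within the RSV libraries (0.043). The median of the 10 genes was 0.39 under TMM and -0.65 under spike-in scaling.

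No member had a called interaction of RSV and TCDD, where 0.0124% of all tested genes had a higher one and 0.137% a lower one. In edgeR and in DESeq2 alike 2 of the 10 had an unadjusted p below 0.05, SLC45A2 at 0.28 (95% interval 0.03 to 0.52) and GPR143 at -0.29 (-0.52 to -0.06). PMEL, whose response to Vem differed most with RSV, had an interaction of 0.05 with TCDD (-0.17 to 0.27).

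Of the regulators above these genes, MITF was not called with Vem and was lower with RSV. It was at 1197 and 939 CPM with vehicle, 1216 and 1259.8 with Vem, 457 and 633 with RSV, 733 and 851 with RSV+Vem, 943 and 863 with TCDD, and 588 and 707 CPM with RSV+TCDD. With Vem it was at a log2 fold change of 0.21 (edgeR adjusted p = 0.26), with RSV it fell by 0.97, and with RSV+Vem it was 0.54 above RSV (-0.0055 under spike-in scaling). SOX10 was higher with Vem by 0.31 (-0.34 under spike-in scaling) and lower with RSV by 0.79 on the log2 scale. Among 13 upstream regulators 7 were called higher and 2 lower with Vem, beside 25.5% and 26.9% of all tested genes. TFAP2A was at 1.36 and IRF4, a melanocyte transcription factor, at 1.58 (0.71 and 0.92 under spike-in scaling, neither called). With RSV 2 were higher and 6 lower, beside 20.5% and 20.2% of all tested genes, TFAP2A falling by 1.36. With TCDD 1 was higher, the receptor KIT at 0.71, and 1 lower, IRF4 at -0.47, beside 4.72% and 2.01% of all tested genes. Under spike-in scaling KIT was at 0.20 and IRF4 at -0.98 with TCDD, neither called.

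The lists of other melanosome genes held calls in both directions with Vem and with RSV, on the TMM scale. Over all tested genes 25.5% were called higher and 26.9% lower with Vem, 20.5% and 20.2% with RSV, and 4.72% and 2.01% with TCDD. The counts below were not tested against these shares. Of 17 genes for sorting and transport of melanosome cargo, 8 were higher and 3 lower with Vem (median 0.31), with RAB32 at 1.51 and MLPH, which tethers melanosomes to the motor MYO5A, at 1.10. With RSV 1 was higher and 8 lower (median -0.30), MYO5A falling by 1.20, and with TCDD only RAB38 was called, at 0.43 (-0.075 under spike-in scaling). Of 11 other genes linked to melanosomes, 5 were higher and 1 lower with Vem (median 0.02), led by APOE, an apolipoprotein linked to PMEL fibrils, at 2.51. With RSV 4 of these were higher and 4 lower, TRPM1 falling by 1.51 and TPCN2 falling by 1.15 while BACE2, at a low level, was higher by 1.21 and APOE by 1.14, and with TCDD 3 were higher and 2 lower, MFSD12 leading at 1.79. Of 11 reported MITF targets outside the melanosome, Vem raised 5 and lowered 3, and RSV raised 1 and lowered 4. The 10 genes' medians of 0.95 with Vem and -0.61 with RSV were farther from 0 than those of all 4 lists, which ran from 0.02 to 0.37 and from -0.30 to 0.07, and these differences between lists were not tested. Under spike-in scaling the medians of the 4 lists with Vem ran from -0.63 to -0.29, beside 0.30 for the 10 genes, and APOE was the 1 gene of these lists still called higher. Called lower with Vem on that scale were 2 regulators, 1 other melanosome gene, 1 sorting gene and 2 MITF targets. With RSV spike-in scaling left 1 regulator, TFAP2A, and 1 other melanosome gene, TRPM1, called lower, and no call among the sorting genes or the MITF targets. With TCDD it left no call in any of the 4 lists, MFSD12 being at 1.29. In RSV+Vem against Vem under TMM, 10 of the 17 sorting genes were lower and 1 higher, 6 of the 11 other melanosome genes lower and 1 higher, 7 of the 13 regulators lower and 3 higher, and 5 of the 11 MITF targets lower and 1 higher. Of all tested genes 18.7% were called lower and 19.1% higher in that comparison. Under spike-in scaling 1 other melanosome gene, TPCN2, was called lower in that comparison and none of the other 3 lists held a call.

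**Figure D5:**
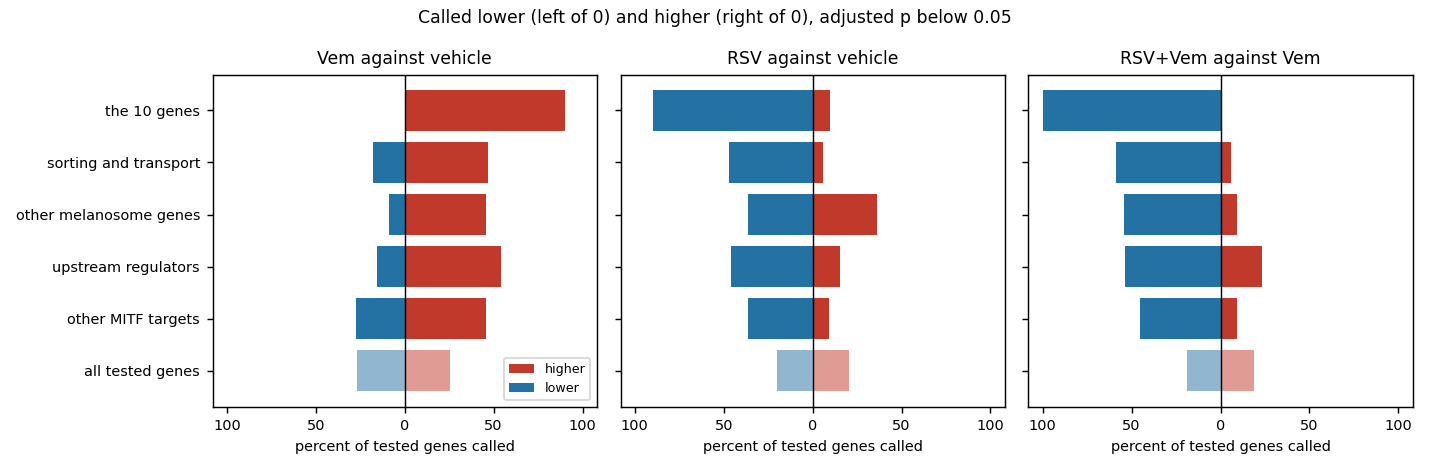
Percent of the tested genes of each list (y axis) called lower (blue, left of 0) and higher (red, right of 0) under TMM scaling in 3 comparisons, with all tested genes in pale colours. The 10 genes reach 90% higher with Vem, 90% lower with RSV and 100% lower with RSV+Vem against Vem, and the other lists hold calls in both directions. Under spike-in scaling 1, 3 and 4 of the 10 genes were called in these comparisons, in the same directions.

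Across the 12 libraries, which fall into 6 groups and share scaling factors, the log2 levels of the 9 genes other than GPNMB had pairwise Pearson correlations between 0.55 and 0.97 over their 36 pairs, highest for TYRP1 with OCA2. GPNMB had correlations between -0.37 and 0.38 with the other 9. The correlation with MITF was highest in TYRP1 at 0.92 and lowest among those 9 in TYR at 0.65, and it was -0.05 in GPNMB. Of 11091 genes with a mean of at least 5 CPM, those most like each member over the 12 libraries were QARS, DALRD3 and AC007318.5 for PMEL (0.99 to 0.98), MOB3B, MTURN and RPS6KC1 for TYRP1 (all 0.99), and HIBADH, NTPCR and SNAP25 for DCT (0.99 to 0.98). They were PRKCB, AC145110.1 and TYRL for TYR (0.97 to 0.96), ATP5G2, GPC5 and GLUD1 for MLANA (0.97 to 0.96), and CNPY4, IST1 and EPAS1 for GPNMB (0.98 to 0.97). For OCA2 they were SYP, TMEM117 and PNPLA4 (0.99 to 0.98), for SLC45A2 ATP5G1, WDR1 and DNAJB6 (0.99 to 0.98), for SLC24A5 LDHB, SEC22C and ATXN10 (0.99 to 0.98), and for GPR143 they included GALNT10 (0.99) and RTFDC1 (0.98).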

How the data were processed

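Read pairs of stranded mRNA libraries were aligned by the authors with STAR 2.4.0a to hg19 (GRCh37) and counted per gene symbol with featureCounts (Subread 1.5.0-p3). The annotation release is not given in the sources used here. The deposited values are raw counts for 56638 symbols, beside 96 controls (92 are ERCC spike-ins) that took between 0.0310% and 0.0936% of each library and were not tested. Counting error is a lower limit on the error of the counts, since PCR copies were not removed. Counts were kept with filterByExpr, scaled with TMM and fitted in edgeR 4.0.16 (R 4.3.3, robust quasi-likelihood, 1 term per group), with calls at an adjusted p below 0.05. Levels per kb used the union of exons of a GENCODE annotation lifted to GRCh37. Correlations used log2 CPM with a prior count of 2. Alternatives were DESeq2 1.42.0, RLE factors, ERCC scaling, other filters on counts, a replicate block, only the libraries compared, and each library left out in turn. A block within the RSV libraries was added after the data were seen. Of the other lists at most 4 genes each were named per comparison, those called with the largest change, besides MITF and SOX10, and the 3 genes most like each member, of which 1 is not reported here. DUSP6 and CYP1A1 were named as checks of treatment, S100A1 and S100B as melanocytic markers, and KRT10, LUM, KRT1, CD163 and PECAM1 as markers of other cells. The members, the lists and these choices were made with earlier results of these data known. The fit was run on counts simulated with 1 common spread for all genes. It called 132 of 200 changed genes and 4 unchanged ones. No shift of scaling was simulated, so this run does not test the choice between TMM and spike-ins. Figures were drawn with matplotlib 3.10.9.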

Additional observations from a re-analysis of the deposited data

Results flagged for a closer look

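For 4 genes the response to Vem differed between cells with and without RSV, by the interaction term of the fitted model. The interaction was -1.02 on the log2 scale in PMEL, -0.97 in GPNMB, -0.52 in SLC45A2 and -0.41 in GPR143, all with a smaller effect of Vem in the presence of RSV. It was of the same sign without any 1 of the libraries, although GPR143 lost its call without Vem replicate 2. Under spike-in scaling none of the 4 was called, with values of -0.88 in PMEL, -0.85 in GPNMB, -0.39 in SLC45A2 and -0.28 in GPR143.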

How the results depend on the processing

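Of 68 counts of called members under DESeq2, RLE factors, other filters, a replicate block and fits of only the libraries compared, all 68 were within 1.5 times of the reported count, as were 50 of 52 with 1 library left out. Left out in turn, the libraries gave between 2 and 6 called members for RSV+TCDD against RSV, with 2 without RSV replicate 1 and 2 without RSV+TCDD replicate 2. Scaling to the ERCC spike-ins moved 10 of 11 counts. It left 1 called member for Vem and 0 for TCDD against vehicle, 3 each for RSV and RSV+Vem against vehicle, 4 for RSV+Vem against Vem, 1 for RSV+Vem against RSV, 0 for the interaction of RSV and Vem, 0 for Vem against TCDD, 6 for RSV+TCDD against TCDD and 0 for RSV+TCDD against RSV. The members' median became -0.098 for TCDD against vehicle, -0.091 for RSV+Vem against RSV, -0.65 for RSV+TCDD against RSV and -0.48 for the interaction of RSV and TCDD, and that last median, 0.05 as reported, ran from -0.075 to 0.18 with 1 library left out, below 0 in 3 cases (-0.075, -0.073 and -0.0056). The spike-in level differed between replicates, and its part was not tested. Without the shares of all tested genes called under ERCC scaling, the lost calls are not a result about the members in particular. Relative to the median of all tested genes, the members' median for Vem against vehicle was 0.98 under TMM and under ERCC scaling. For RSV against vehicle it was -0.61 under TMM and -0.62 under ERCC scaling.

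Of 74 called log2 fold changes of single members, 18 kept call and direction under ERCC scaling, 40 kept direction only and 16 turned. Turned values were -0.27 in TYR, -0.28 in MLANA and -0.17 in SLC45A2 for Vem against vehicle, -0.022 in GPR143 for TCDD against vehicle, -0.058 in DCT, -0.031 in GPNMB and -0.090 in OCA2 for RSV+Vem against vehicle, -0.066 in PMEL, -0.12 in TYR and -0.029 in GPR143 for RSV+Vem against RSV, -0.13 in GPNMB for RSV+TCDD against TCDD, and -0.40 in PMEL, -0.39 in DCT, -0.31 in TYR, -0.65 in MLANA and -0.51 in OCA2 for RSV+TCDD against RSV. Leaving out 1 library turned none of these 74 and ended a call in 26 of 312 values, and the remaining alternatives ended 5 of 455. Of the 36 values not called, 25 changed sign under ERCC scaling. With the replicate number as a block, the 10 members were called as often as without it, apart from 6 in place of 5 for RSV+TCDD against RSV (7 with a block within the RSV libraries). Over all groups the replicate numbers do not pair the libraries alike. The correlation of replicate differences over 6313 genes was above 0.1 in 6 of 15 pairs of groups and below -0.1 in 6. With TCDD it was -0.61 for RSV, -0.50 for RSV+TCDD, -0.46 for RSV+Vem, -0.02 for Vem and 0.38 for vehicle. Among the 3 pairs of groups with RSV it was between 0.41 and 0.59, and for these the values with the block within the RSV libraries apply. With lengths of the longest transcript, between 2 and 4 of the 10 members changed rank in level per kb in each group. With 2 libraries per group, differences within the intervals given cannot be resolved.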
